A study of Rattus norvegicus with 12 samples.

Results

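The genes described here encode the machinery of mitosis and cell division: the kinases and cyclins that drive entry into mitosis, the spindle checkpoint, the kinetochore, the chromosomal passenger complex, the spindle motors, the anaphase ubiquitin ligase and the proteins of cytokinesis. The list named 52 genes, chosen by function, and 47 of them were measured, by the probe with the highest mean over the 12 arrays, among 18166 named genes in all. Cenpe, Spc24, Nek2, Birc5 and Anln were not analysed here. The study exposed primary wild-type rat cardiomyocytes to SIN-1 (3-morpholinosydnonimine), a peroxynitrite donor. RNA from untreated control cells and from cells after 70 min, 4 h or 8 h in SIN-1 was hybridised to one-colour arrays, with 3 replicates for each of the 4 groups; the design text speaks of biological triplicates. All groups were grown in the same medium with fetal bovine and horse serum. The labels give neither the SIN-1 concentration, nor a culture time or vehicle for the control, nor the age of the donor animals, and the 3 comparisons with control share their control arrays. Expression is given as log2 on the scale of the robust multi-array average (RMA), so that a difference of 1 is a doubling.

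Transcripts of mitotic genes accumulate late in the cell cycle, from the S phase into G2 and M, and are low in cells that have left the cycle, as most cardiomyocytes do soon after birth. Their promoters are classically described as carrying a cell cycle genes homology region (CHR), which the MuvB core binds together with repressive p130 and E2F4 in the DREAM complex or with activating B-Myb and FOXM1, and nearby CCAAT boxes bound by NF-Y. Genes of DNA replication, which are switched on earlier, at the transition from G1 to S, are instead known for E2F sites.

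Promoter sequences from RefSeq (assembly GRCr8) were set out first, since they show what these genes share beyond their function. Of the 47 measured genes, 40 had a promoter in the table, a window of 300 bases that runs from 250 before to 50 after the annotated gene start. Those without one were Ccna2, Incenp, Foxm1, Racgap1, Aurkb, Tpx2 and Ube2c, so several genes called below are not covered. The letters searched, on both strands, were TTTGAA or TTTAAA for the CHR, CCAAT for the CCAAT box, and TTTCCCGC, TTTCGCGC, TTTGCCGC or TTTGGCGC for the E2F site, none of which contains another. CHR letters were present in 35 of the 40 promoters (87.5%), against 24.6% of the 14530 promoters of all tested genes and 17.5% of the 40 promoters found for a list of 48 DNA replication genes. CCAAT letters were present in 75% of the mitotic promoters, 60% of the replication promoters and 38% of all. E2F letters went the other way, with 5% of the mitotic promoters, those of Cdk1 and Kif18a, against 47.5% of the replication promoters and 3.07% of all. CHR and CCAAT letters occurred together in 67.5% of the mitotic promoters, 5% of the replication promoters and 9.96% of all. The promoters without CHR letters in this window were those of Bub3, Cdca3, Cdc25b, Kif18a and Melk. These matches are a description of letters and were not tested as binding sites.

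**Figure D1:**
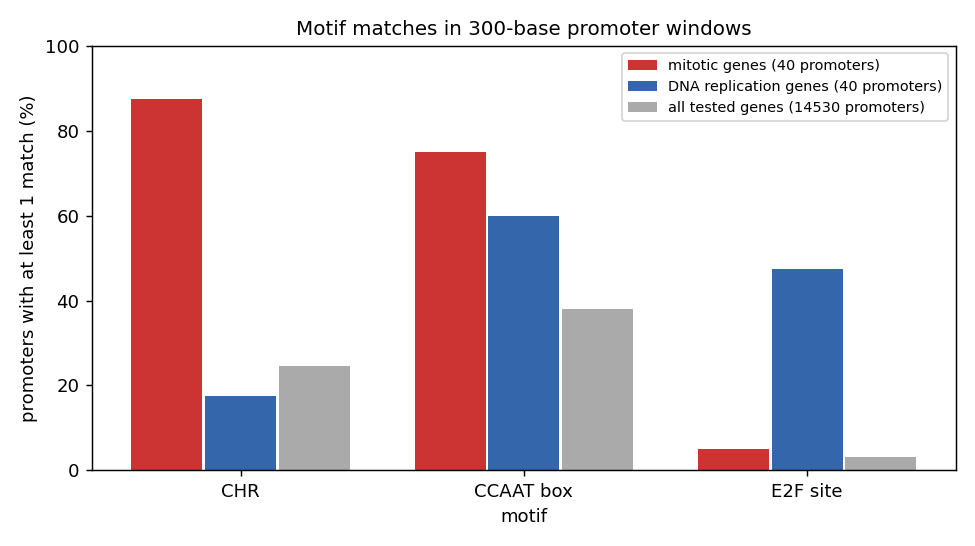
Bars give the percentage of promoter windows with at least 1 match to the CHR, CCAAT box or E2F letters, for mitotic genes, DNA replication genes and all tested genes. The mitotic bar is highest for the CHR (87.5%) and the replication bar is highest for the E2F site (47.5%).

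The 160 bases before the annotated start are shown for 6 mitotic genes, Cdc20, Plk1, Nusap1, Dlgap5 and Cdca3, which are described below, and Cdk1, beside 1 replication gene, Mcm6, for contrast. They are written 5′ to 3′ on the gene's strand, with matches to any of the 3 motifs in capitals. Cdc20 lies at chr5:137255800-137255959 (minus strand), Plk1 at chr1:186147498-186147657 (plus strand), Nusap1 at chr3:127057135-127057294 (plus strand) and Dlgap5 at chr15:23144177-23144336 (minus strand). Cdca3 lies at chr4:159321043-159321202 (plus strand), Cdk1 at chr20:19265133-19265292 (plus strand) and Mcm6 at chr13:42404353-42404512 (minus strand).
Cdc20: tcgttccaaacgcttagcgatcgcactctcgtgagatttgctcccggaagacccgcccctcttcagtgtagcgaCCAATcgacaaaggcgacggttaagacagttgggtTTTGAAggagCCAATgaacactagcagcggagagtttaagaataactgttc
Plk1: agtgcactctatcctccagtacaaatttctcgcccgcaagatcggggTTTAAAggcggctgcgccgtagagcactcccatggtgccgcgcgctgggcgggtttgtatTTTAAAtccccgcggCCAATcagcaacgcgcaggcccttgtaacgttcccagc
Nusap1: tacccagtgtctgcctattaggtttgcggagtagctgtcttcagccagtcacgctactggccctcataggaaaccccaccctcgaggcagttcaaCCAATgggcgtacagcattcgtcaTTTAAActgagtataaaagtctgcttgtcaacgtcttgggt
Dlgap5: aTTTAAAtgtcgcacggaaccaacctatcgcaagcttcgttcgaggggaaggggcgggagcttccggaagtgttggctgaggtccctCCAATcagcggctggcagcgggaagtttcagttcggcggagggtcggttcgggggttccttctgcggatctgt
Cdca3: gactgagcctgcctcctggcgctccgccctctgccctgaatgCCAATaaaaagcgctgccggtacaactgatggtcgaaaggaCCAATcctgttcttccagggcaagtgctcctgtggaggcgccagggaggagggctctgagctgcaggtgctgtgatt
Cdk1: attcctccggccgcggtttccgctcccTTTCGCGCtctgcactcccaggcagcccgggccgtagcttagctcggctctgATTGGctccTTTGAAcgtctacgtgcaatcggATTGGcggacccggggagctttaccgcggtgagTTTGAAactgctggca
Mcm6: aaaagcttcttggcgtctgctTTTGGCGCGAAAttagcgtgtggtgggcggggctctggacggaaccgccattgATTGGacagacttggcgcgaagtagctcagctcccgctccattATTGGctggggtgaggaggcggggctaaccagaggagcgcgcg
Positions are those of the first base of a match, with negative numbers before the start. In the Cdc20 promoter the CHR letters began at -51, between CCAAT letters at -86 and -41. Plk1 had TTTAAA at -113 and -53 and CCAAT at -38. Nusap1 had CCAAT at -65 and TTTAAA at -41. Cdca3 had CCAAT letters alone, and Cdk1 was the one promoter of the 6 with E2F letters, at -133. In Mcm6 overlapping E2F letters of both strands began at -139 and -135, with inverted CCAAT letters at -86 and -43 and no CHR letters.

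The label of the cells was set against markers of cell types that such cultures can hold. The unnamed probes had a median of 4.33. Of 12 measured cardiomyocyte markers, Myh7 (2.94 to 3.88), Myh6 (3.12 to 4.51), Ryr2 (3.96 to 4.36) and Actn2 (4.03 to 4.62) lay around it. So did Mybpc3 (4.10 to 4.86), Myl3 (4.11 to 4.70) and Ttn (4.37 to 4.70). Pln (7.61 to 8.37), Tnnc1 (6.89 to 7.42) and Nkx2-5 (5.78 to 6.37) lay above that median. Tnnt2 (5.67 to 6.09) and Tnni3 (5.19 to 5.87) did too. Of the 10 fibroblast markers, the matrix genes Col1a1 (12.74 to 12.84), Col3a1 (11.50 to 11.98) and Postn (11.42 to 11.71) were bright in every array. Others of that list were not, with Thy1 at 6.06 to 6.39, Pdgfra at 5.49 to 5.83, Dcn at 4.93 to 6.53 and Tcf21 at 4.46 to 5.05. The myosin heavy chains, titin, actinin and the ryanodine receptor of the labelled cell type were thus at or near background, and the share of mitotic transcripts that came from cardiomyocytes could not be told from these bulk arrays. A lower value in bulk RNA can come from fewer cells of a type or from less RNA per cell, and these cannot be told apart. The mean over the 10 fibroblast markers ran from 9.04 to 9.07 in controls, 8.67 to 8.80 at 70 min, 8.87 to 8.99 at 4 h and 9.02 to 9.16 at 8 h, and that over the cardiomyocyte markers from 5.10 to 5.24, 5.05 to 5.35, 5.01 to 5.16 and 4.98 to 5.19. Of these markers, 4 fibroblast genes were called lower at 70 min and 1 of each type at 4 h. At 70 min they were Lum (-1.42), Dcn (-1.05), Col3a1 (-0.41) and Ddr2 (-0.28). The other fibroblast markers ran from -0.20 (Pdgfra) to 0.24 (Tcf21) at that time. Means over endothelial markers lay between 4.37 and 4.70 in all arrays, over macrophage markers between 3.76 and 4.07 and over Schwann cell markers between 4.65 and 5.19. Over the 6 smooth muscle markers the mean was 6.95, 6.86 and 6.81 in the 4 h replicates, all below the controls (6.97 to 7.11), with 6.99 to 7.05 at 70 min and 6.98 to 7.03 at 8 h. Pdgfrb (-0.49) and Notch3 (-0.41) of that list were called lower at 4 h, and Notch3 (-0.33) and the endothelial gene Tek (-0.88) at 70 min. The part of these markers in the results was not tested. Array medians ran from 4.981 to 5.053, apart from 70 min replicates 2 and 3 (5.114 and 5.12) and 4 h replicate 3 (5.09).

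The mitotic genes moved by small amounts. Over the 47 genes the median log2 difference from control was 0.08 at 70 min, 0.20 at 4 h and -0.04 at 8 h, beside 0.03, 0.01 and 0.01 for all genes tested. At 70 min 30 of the 47 lay above the control mean and at 4 h 42 did (63.8% and 89.4%, against 55.2% and 53.6% of all genes); at 8 h 19 did (40.4% against 54.5%). For 40 of the 47 the mean at 4 h was above those at both 70 min and 8 h. The share of all genes with this order of means was not counted. Array by array, the median of the 47 differences from the control mean was 0.23, 0.31 and 0.11 in the 4 h replicates, 0.22, -0.01 and 0.00 at 70 min, and 0.00, -0.02 and 0.00 at 8 h, with -0.07 to 0.05 in the controls. The 70 min replicates therefore differed among themselves, replicate 1 lying apart from replicates 2 and 3, and the 70 min median was 0.00 without replicate 1 and 0.02 without control replicate 2. Every 4 h replicate lay above every control.

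**Figure D2:**
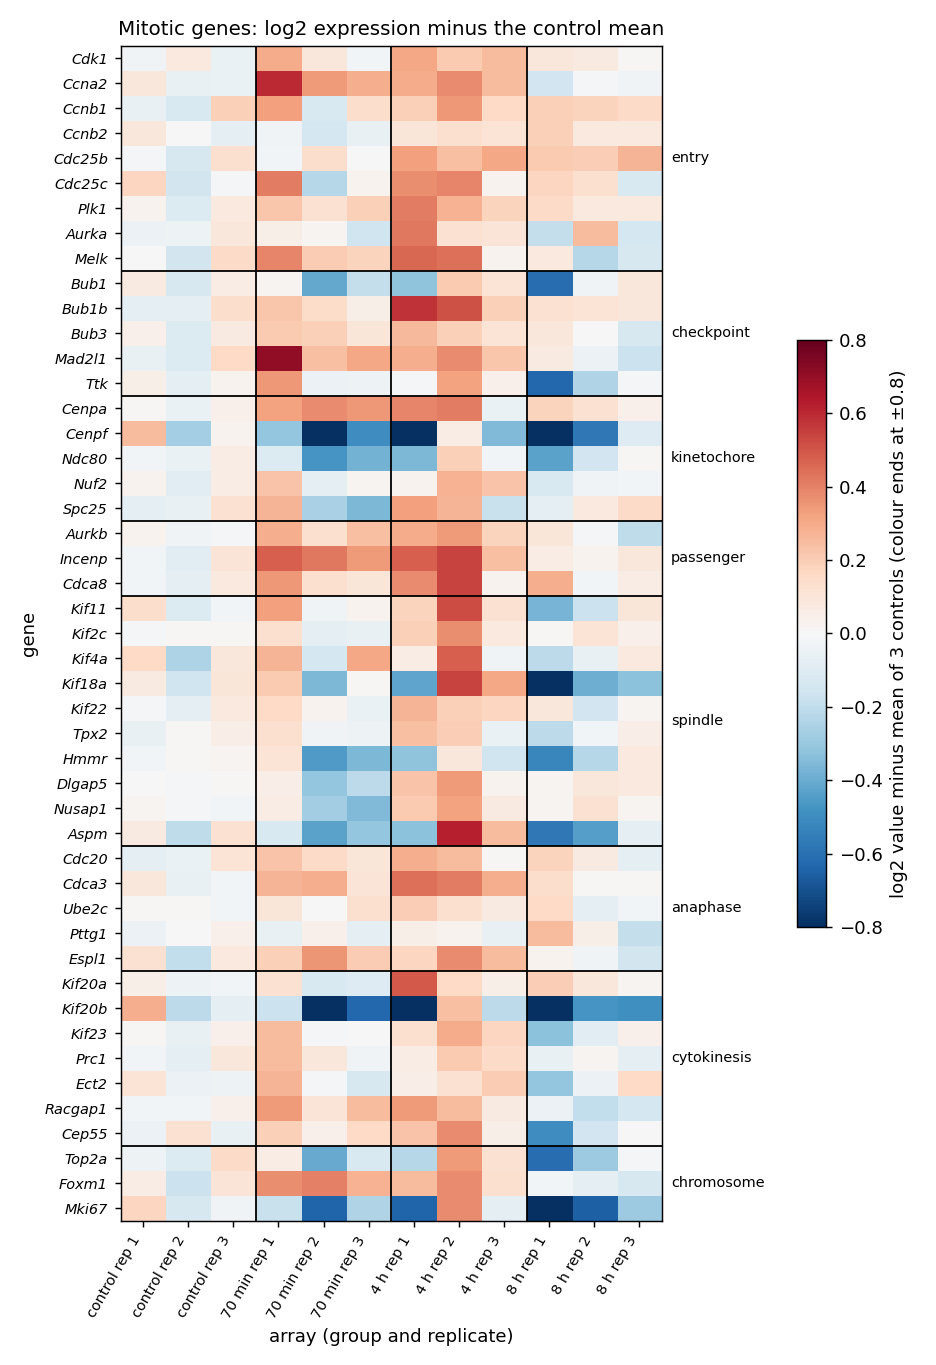
Each row is a mitotic gene and each column an array; colour gives the log2 value minus the mean of the 3 controls, red above and blue below, with rows grouped by role. The 4 h columns are mostly red, the 8 h columns are pale, and Cenpf, Kif20b, Kif18a, Aspm and Mki67 change colour between replicates of a group.

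The comparison of 70 min with control asked which mitotic transcripts differed early in the exposure. Ccna2, Mad2l1, Incenp and Foxm1 rose, by 1.28-fold to 1.34-fold, and no mitotic gene was called lower. These 4 of 47 genes (8.51%) stand beside 14.6% of all genes called, 6.76% higher and 7.81% lower, so the share called was near the background. Ccna2 encodes cyclin A2, a partner of CDK2 and CDK1 from S phase to mitosis. Its values were 8.40, 8.25 and 8.26 in controls and 8.91, 8.65 and 8.60 at 70 min. All treated values lay above all controls, and the difference was 0.41 ± 0.08 (SE) on the log2 scale (limma adjusted p = 0.00251). Mad2l1, the checkpoint protein that with BubR1 holds back CDC20, measured 6.89, 6.84 and 7.11 in controls and 7.66, 7.19 and 7.26 at 70 min. The groups did not overlap, but replicate 1 was the farthest above (0.42 ± 0.12, SE; limma adjusted p = 0.0236). Incenp, the scaffold of the chromosomal passenger complex, measured 6.49, 6.42 and 6.61 in controls and 6.99, 6.93 and 6.85 at 70 min, with no overlap (0.41 ± 0.10, SE; limma adjusted p = 0.00846). Foxm1, a transcription factor that activates mitotic genes, measured 7.11, 6.88 and 7.15 in controls and 7.42, 7.45 and 7.33 at 70 min, again with no overlap (0.35 ± 0.09, SE; limma adjusted p = 0.0183). The call of Mad2l1 ended without control replicate 1 (limma adjusted p = 0.0899), control replicate 2 (0.0953) or 70 min replicate 1 (0.0901), and that of Foxm1 without control replicate 2 (0.099) or 70 min replicate 2 (0.0694), so that 2 calls were left without control replicate 2. With every array centred on its median only Ccna2 was called. In a fit of the compared groups alone, Kif20b, Cenpf, Ndc80 and Mki67 were called lower, and with array weights Cenpf and Ndc80 were.

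Role by role, the other genes at 70 min gave values that did not pass without such changes of setting. Among the kinases, cyclins and phosphatases of mitotic entry, Plk1, a kinase of centrosome maturation and mitotic exit, was at 0.17, Cdk1, the master mitotic kinase, at 0.12, its partner Ccnb1 at 0.11, Ccnb2 at -0.08, the activating phosphatases Cdc25b and Cdc25c at 0.04 and 0.06, the spindle pole kinase Aurka at -0.03 and Melk at 0.26. In the checkpoint, Bub1b was at 0.14, Bub3 at 0.16, the kinase Ttk at 0.09 and the kinase Bub1 at -0.19. In the passenger complex, its kinase Aurkb was at 0.22 and Cdca8 (borealin) at 0.20. Of the anaphase genes Cdc20, an activator of the ubiquitin ligase, was at 0.16 and its conjugating enzyme Ube2c at 0.08. Securin (Pttg1) was at -0.03 and separase (Espl1) at 0.25. Cdca3, grouped with them here, was at 0.22. The kinetochore genes spread in both directions. Cenpa, the centromeric histone variant, was at 0.35 ± 0.12 (SE; limma adjusted p = 0.0537), with 6.16, 6.10 and 6.19 in controls and 6.47, 6.53 and 6.50 at 70 min. Ndc80, the microtubule-binding subunit, was at -0.32 ± 0.13 (limma adjusted p = 0.119), Cenpf at -0.69 ± 0.30 (limma adjusted p = 0.139), Nuf2 at 0.06 and Spc25 at -0.11. The 10 spindle motors and assembly factors ran from -0.28 (Aspm) to 0.15 (Kif4a), and the 7 cytokinesis genes from -0.54 (Kif20b) to 0.23 (Racgap1). Top2a, the topoisomerase that untangles sister chromatids, was at -0.15 and Mki67, which coats mitotic chromosomes, at -0.36. All 3 arrays lay above all 3 controls in 13 of the 47 genes (27.7%) and below them in 3 (6.38%), beside 16.8% and 15% of all genes.

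At 4 h the genes called higher were Incenp, Cdca3, Plk1, Bub1b and Ccna2, by 1.22-fold to 1.35-fold, and none was called lower. They made up 10.6% of the 47 genes, beside 3.85% of all genes called, 2.08% higher and 1.77% lower. Bub1b encodes BubR1, the checkpoint kinase that joins MAD2 on CDC20. It measured 6.66, 6.66 and 6.87 in controls and 7.31, 7.24 and 6.92 at 4 h. The groups did not overlap, though replicate 3 lay just above the highest control (0.43 ± 0.11, SE; limma adjusted p = 0.0299). Incenp measured 6.99, 7.05 and 6.75 at 4 h, above its controls throughout (0.42 ± 0.10, SE; limma adjusted p = 0.0224). Cdca3, which takes part in the degradation of the mitotic inhibitor WEE1, measured 7.27, 7.12 and 7.16 in controls and 7.62, 7.59 and 7.47 at 4 h (0.37 ± 0.09, SE; limma adjusted p = 0.0221). Plk1 measured 9.15, 9.01 and 9.20 in controls and 9.53, 9.40 and 9.30 at 4 h (0.29 ± 0.07, SE; limma adjusted p = 0.027). Neither of these pairs of groups overlapped. Ccna2 was at 8.61, 8.69 and 8.56, a difference of 0.31 ± 0.08 (SE; limma adjusted p = 0.0465). Incenp and Ccna2 were the 2 genes called at both times. Foxm1 and Mad2l1 stood at 0.25 and 0.30 at 4 h and did not pass (limma adjusted p = 0.192 and 0.217).

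None of the 5 calls at 4 h held when arrays were centred on their medians (limma adjusted p = 0.0936 to 0.192) or when all probes were tested (0.0554 to 0.123), and none was left without control replicate 2 or without 4 h replicate 1 or 2. Without control replicate 1 there was 1 call and without control replicate 3 there were 3. Without control replicate 2 the limma adjusted p was 0.116 for Incenp, 0.109 for Cdca3, 0.154 for Plk1, 0.133 for Bub1b and 0.183 for Ccna2. Without 4 h replicate 1 these were 0.088, 0.0892, 0.133, 0.15 and 0.109, and without 4 h replicate 2 they were 0.0912, 0.0674, 0.0621, 0.0984 and 0.136. Without control replicate 1, Incenp (0.0886), Plk1 (0.0733), Bub1b (0.135) and Ccna2 (0.0646) lost their calls, and without control replicate 3 Cdca3 (0.0814) and Ccna2 (0.156) did. The call of Ccna2 ended also without 4 h replicate 3 (0.0643), 70 min replicate 2 (0.053) or 8 h replicate 2 (0.0671) or 3 (0.055).

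The genes that did not pass at 4 h nevertheless lay mostly on the upper side. All 9 genes of mitotic entry had a positive difference, from 0.11 (Ccnb2) to 0.31 (Ccna2), with Cdc25b at 0.30, Cdc25c at 0.26, Cdk1 at 0.25, Ccnb1 at 0.23, Aurka at 0.21 and Melk at 0.31. In the checkpoint Bub3 was at 0.19, Ttk at 0.11 and Bub1 at 0.00. The 3 measured passenger genes were at 0.27 (Aurkb), 0.32 (Cdca8) and 0.42 (Incenp). Anaphase genes ran from 0.01 (Pttg1) to 0.27 (Espl1), with Cdc20 at 0.19 and Ube2c at 0.13. Cdca3, grouped with them here, was at 0.37. Among spindle genes, the bipolar spindle motor Kif11 was at 0.27, the depolymerising motor Kif2c and the chromokinesin Kif22 at 0.21 each, Kif4a at 0.17, Kif18a at 0.14, the Aurora A activator Tpx2 at 0.13, Aspm at 0.18 and Hmmr at -0.13. In cytokinesis, Kif20a was at 0.24, Racgap1 and Cep55 at 0.22, Kif23 at 0.20, the spindle midzone bundler Prc1 at 0.14, the RhoA exchange factor Ect2 at 0.12 and Kif20b at -0.28. The kinetochore genes again divided, with Cenpa at 0.25, Nuf2 at 0.18, Spc25 at 0.14, Ndc80 at -0.06 and Cenpf at -0.47. Top2a was at 0.07 and Mki67 at -0.12. In 22 of the 47 genes (46.8%) all 4 h arrays lay above all controls, and in 0 below, beside 11.6% and 8.71% of all genes.

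**Figure D3:**
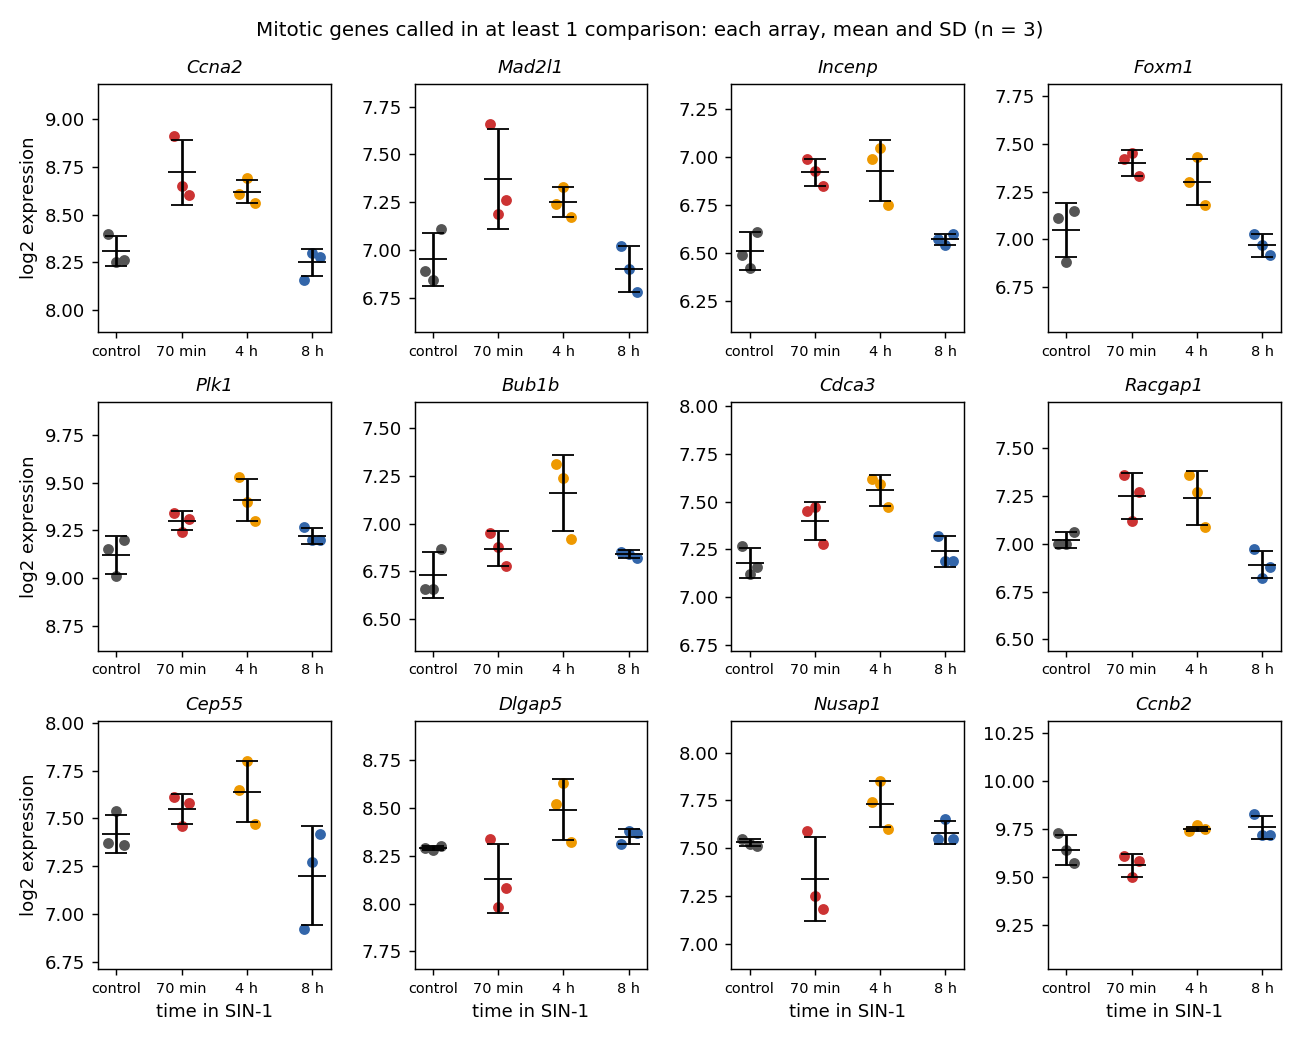
Points are single arrays, the horizontal marks give the mean and the bars the SD of 3 arrays, in log2 expression, for the 12 mitotic genes called in at least 1 of 6 comparisons; every panel spans the same range of log2 units. Ccna2, Mad2l1, Incenp and Foxm1 are high at 70 min and 4 h and near the controls at 8 h. The means of Dlgap5 and Nusap1 are lowest at 70 min, though neither gene was called against control then. In both, 70 min replicate 1 lies above all controls and replicates 2 and 3 below them.

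After 8 h no mitotic gene was called by limma, beside 0.0275% of all genes called, 0.022% higher and 0.0055% lower. At an unadjusted p under 0.05 there were 5, Cdc25b at 0.23 and, on the other side, Kif18a at -0.54, Cenpf at -0.65, Mki67 at -0.71 and Kif20b at -0.75. The last 3 were also the only mitotic genes at or past a 1.5-fold difference from control at any time, and none passed (limma adjusted p = 0.654 for Mki67, 0.807 for Kif20b and 0.906 for Cenpf at 8 h). Mki67 measured 10.17, 9.87 and 9.97 in controls and 8.80, 9.35 and 9.71 at 8 h. All 8 h values lay below all controls, but replicate 1 lay well below the other 2. The genes that had risen earlier lay near control again, with Ccna2 at -0.06, Mad2l1 at -0.05, Incenp at 0.06, Foxm1 at -0.08, Cdca3 at 0.05, Plk1 at 0.10 and Bub1b at 0.11. All 8 h arrays lay above all controls in 3 of the 47 genes (6.38%) and below in 4 (8.51%), beside 7.98% and 5.24% of all genes.

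The treated times were then compared with each other, which bears directly on whether the differences from control changed over time. Between 70 min and 4 h, Dlgap5 and Nusap1 rose and no mitotic gene was called lower. Those that rose made up 4.26% of the 47 genes, beside 7.63% of all genes called, 4.48% higher and 3.15% lower. Dlgap5, which stabilises kinetochore fibres, measured 8.34, 7.98 and 8.08 at 70 min and 8.52, 8.63 and 8.32 at 4 h, against 8.29, 8.28 and 8.30 in controls. The groups overlapped, since 70 min replicate 1 lay above 4 h replicate 3 (0.36 ± 0.09, SE; limma adjusted p = 0.0223). Nusap1, a microtubule-bundling protein of the central spindle, measured 7.59, 7.25 and 7.18 at 70 min and 7.74, 7.85 and 7.60 at 4 h, where the groups met at 7.59 and 7.60 (0.39 ± 0.10, SE; limma adjusted p = 0.0254). In both genes 70 min replicates 2 and 3, the arrays of high median, were the low ones. Without the 3 arrays of highest median the differences stayed positive (at least 0.23 and 0.20). That fit leaves 1 array at 70 min, so it cannot decide the calls. Both calls ended without 70 min replicate 2 (limma adjusted p = 0.121 for Dlgap5 and 0.109 for Nusap1) or 3 (0.0935 and 0.142). They ended also without 4 h replicate 1 (0.0638 and 0.0646) or 2 (0.119 and 0.12), and in a fit that held the array median as a further term (0.0893 and 0.105).

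From 4 h to 8 h, Ccna2 and Cep55 fell (4.26% of the 47 genes, beside 3.51% of all genes called, 1.54% lower and 1.97% higher), and the difference was positive in 2 of the 47 genes (4.26%, against 48.2% of all genes). Ccna2 fell by 0.37 (SE 0.08; limma adjusted p = 0.0188), with 8.16, 8.30 and 8.28 at 8 h all below the 4 h values. Cep55, which organises the midbody for abscission, measured 7.65, 7.80 and 7.47 at 4 h and 6.92, 7.27 and 7.42 at 8 h. These groups did not overlap, but replicate 1 at 8 h lay far below the others (-0.44 ± 0.12, SE; limma adjusted p = 0.0495). The call of Cep55 ended without any one of 10 arrays, at limma adjusted p from 0.0525 without 70 min replicate 1 to 0.205 without 8 h replicate 1, and that of Ccna2 ended without 4 h replicate 2 (0.0783) or 8 h replicate 1 (0.0754) or 2 (0.0538). Just outside the threshold were Racgap1 (-0.35; limma adjusted p = 0.0508), Cdca3 (-0.32; 0.051) and Incenp (-0.36; 0.0555). The number called here ran from 0 with centred arrays to 12 in a fit that held the array median as a further term.

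From 70 min to 8 h, Ccna2, Mad2l1, Foxm1, Racgap1 and Incenp fell and Ccnb2 rose (10.6% and 2.13% of the 47 genes, beside 16% of all genes called, 6.43% lower and 9.56% higher). Ccna2 fell by 0.47 (SE 0.08; limma adjusted p = 0.000761), the smallest p of any mitotic gene, and Mad2l1 also by 0.47 (SE 0.12; limma adjusted p = 0.0116). Foxm1 fell by 0.43 (SE 0.09; limma adjusted p = 0.00446) and Incenp by 0.35 (SE 0.10; limma adjusted p = 0.021). Racgap1, a GTPase-activating subunit of centralspindlin, measured 7.36, 7.12 and 7.27 at 70 min and 6.97, 6.82 and 6.88 at 8 h, against 7.00, 7.00 and 7.06 in controls. The 70 min and 8 h values of Racgap1 lay on opposite sides of the controls without overlap (-0.36 ± 0.09, SE; limma adjusted p = 0.0142). Ccnb2, a B-type cyclin, measured 9.61, 9.50 and 9.58 at 70 min and 9.83, 9.72 and 9.72 at 8 h, with no overlap (0.19 ± 0.06, SE; limma adjusted p = 0.0325). It had a further probe, of lower mean, that went the same way by 0.33. The Ccnb2 call ended without 70 min replicate 2 or 3 (0.136 and 0.0718) or 8 h replicate 1 or 2 (0.116 and 0.0653), that of Incenp without 70 min replicate 1 or 2 (0.0554 and 0.0568) or 8 h replicate 2 (0.0785), that of Racgap1 without 70 min replicate 3 (0.0502) or 8 h replicate 2 (0.0706), and that of Mad2l1 without 8 h replicate 3 (0.0538), while 3 calls were left without 8 h replicate 2. The calls of Ccna2 from 70 min to 8 h and from control to 70 min were made under every setting tried. Over the 4 groups the F test called 8 of the 47 genes, beside 15.3% of all genes.

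The genes also differed in how closely replicates agreed. The SD within groups, pooled over the 4 groups, ran from 0.06 for Ccnb2, 0.07 for Ube2c and 0.08 for Plk1 to 0.51 for Cenpf, with a median of 0.13 beside 0.15 for all genes. The 5 widest were Cenpf, Kif20b (0.42), Mki67 (0.37), Kif18a (0.34) and Aspm (0.30), at percentiles 95.2 to 99.8 of all genes. Cenpf and Kif20b encode large proteins of the kinetochore and the midzone, Kif18a a motor that dampens chromosome movements, and Aspm a protein of spindle poles. These 5 genes deviated together. In 4 h replicate 1 they lay 0.51 to 0.65 below their group means and in 4 h replicate 2 they lay 0.40 to 0.53 above them. In 8 h replicate 1 they lay 0.21 to 0.63 below, in 8 h replicate 3 0.21 to 0.55 above, in 70 min replicate 2 0.15 to 0.56 below and in 70 min replicate 1 0.17 to 0.37 above. Cenpf thus measured 6.49, 7.67 and 7.26 at 4 h, and Aspm 6.89, 7.84 and 7.47. The other genes did not all follow, since 22 of the 47 lay below their group mean in 4 h replicate 1 and 25 in 8 h replicate 1. The array medians of 4 h replicates 1 and 2 were close to each other (4.995 and 4.981). Genes outside the list had the same pattern. Limits of at least 0.5 below the group mean in 4 h replicate 1 and 0.4 above it in 4 h replicate 2 were met by 68 genes (0.374% of all). They included 4 of the 5 widest mitotic genes, without Kif18a, whose 0.40 is a rounded value just short of the limit. Of the 68 genes, 65 lay below their group mean in 8 h replicate 1. Among them were the kinases Rock1 (7.72, 8.97 and 8.31 at 4 h) and Rock2 (9.07, 10.28 and 9.78), the condensin subunit Smc4 (7.91, 9.15 and 8.37) and the kinetochore scaffold Knl1 (6.07, 7.63 and 6.73), named after their values were seen. The 5 mitotic genes were chosen for their spread, and no test was made of it.

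**Figure D4:**
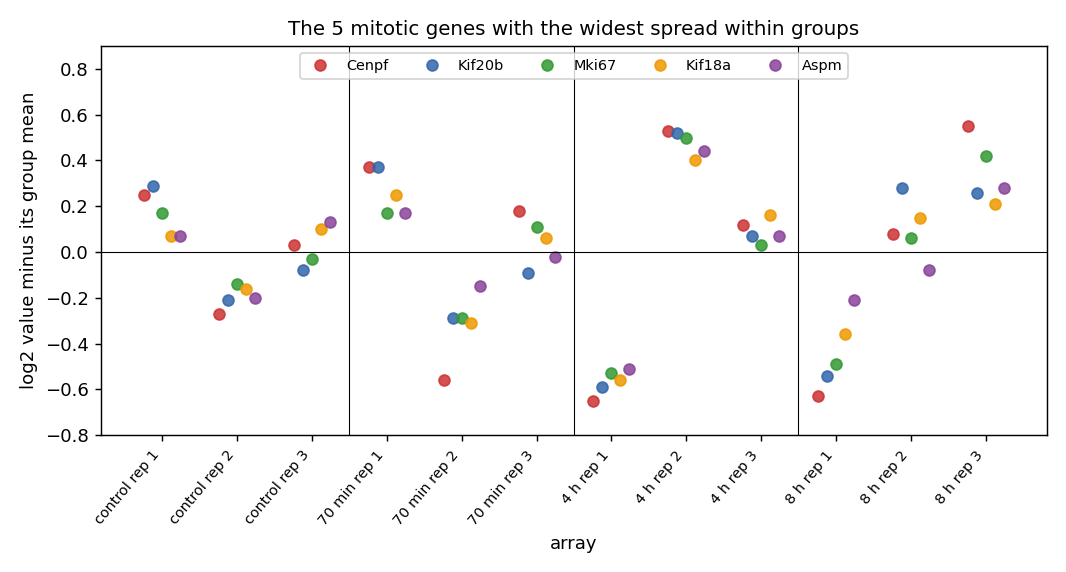
Points give the log2 value minus the mean of its group in each of the 12 arrays for the 5 mitotic genes with the widest spread within groups. All 5 lie 0.51 to 0.65 below their mean in 4 h replicate 1. In 4 h replicate 2 they lie 0.40 to 0.53 above it, as rounded values.

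Other genes of mitosis were taken from lists of regulators, kinetochore, spindle, condensin, cohesin and cytokinesis genes that share no gene with the 47, and 108 of 118 were measured. At 70 min 7 were called higher (6.48%, beside 6.76% of all genes) and 4 lower (3.7%, beside 7.81%), so neither share was above the background. At 4 h 13 were called higher (12%, beside 2.08% of all genes) and none lower, and at 8 h none was called. From 4 h to 8 h 15 were called lower (13.9%, beside 1.54% of all genes) and none higher. At 4 h the median over the 27 kinetochore and centromere genes was 0.17, with 5 called higher, led by Ska3, a subunit of the Ska microtubule-coupling complex (0.55), and Cenpt, a subunit of the inner kinetochore (0.53). Over the 26 spindle and centrosome genes it was 0.19, with Ckap2 (0.55), the motor Kif18b (0.43) and Nedd1, which recruits the γ-tubulin ring complex (0.38), called. Of 16 condensin and cohesin genes the condensin subunits Ncapg2 (0.52), Ncapd2 (0.42) and Ncapd3 (0.38) were called higher at 4 h, over a list median of 0.01. Among 25 further regulators of mitotic entry and exit only Gtse1 (0.44) was called at 4 h and only Cks2 (0.43), a subunit that binds CDK1, at 70 min, and among 14 cytokinesis genes only Pdcd6ip (0.25, and 0.30 at 70 min), an abscission factor. Kinetochore genes called higher already at 70 min were Ska3 (0.71), Cenpt (0.47) and Zw10 (0.33). Fam83d (0.39) of the spindle genes and Ncapg2 (0.53) of the condensin genes were also called higher then. The genes called lower at 70 min were Cenpc (-0.97) and Ska2 (-0.76) among kinetochore genes, and Numa1 (-0.47) and Psrc1 (-0.37) among spindle genes. Of 11 genes of the DREAM and MuvB complexes, 4 rose (36.4%, beside 6.76% of all genes) and 3 fell (27.3%, beside 7.81%) at 70 min. Those that rose were Mybl2, which encodes B-Myb (1.35), Lin54, the DNA-binding subunit that contacts the CHR (0.49), Tfdp1, a dimer partner of E2F proteins (0.47), and E2f4, of the repressive form (0.30). Those that fell were the p130 gene Rbl2, also of the repressive form (-0.68), Lin37, of the MuvB core shared by both forms (-0.66), and Tfdp2, another dimer partner (-0.65). At 4 h Mybl2 (0.90), Lin54 (0.70) and Rbl1 (0.49) were called higher (27.3%, beside 2.08% of all genes) and none lower. Rbl2, Lin37, Tfdp2 and E2f4 then stood at -0.10, -0.01, 0.03 and -0.13.

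DNA replication genes gave larger values on the same arrays. Their list, of 51 genes with 48 measured, had a median difference of 0.44 at 70 min, 0.37 at 4 h and 0.01 at 8 h, with 28 (58.3%), 20 (41.7%) and 0 called higher and none lower. The mitotic list stood at 0.08, 0.20 and -0.04, with 4 (8.51%), 5 (10.6%) and 0 called higher. Of all genes, 6.76%, 2.08% and 0.022% were called higher at these times. From 70 min to 4 h the difference was positive in 39.6% of the replication genes and in 42 of the 47 mitotic genes (89.4%), beside 47.4% of all genes. This mitotic step had a median of 0.12 and depended on the fit. It was 0.03 (29 genes positive) in a fit that held the array median as a further term. Without the 3 arrays of highest median it was also 0.03 (28 positive). The mitotic median was 0.22 in 70 min replicate 1, within the 4 h arrays (0.11 to 0.31). In 70 min replicates 2 and 3 it was -0.01 and 0. Whether the mitotic genes peaked later was therefore not settled. Mcm6, whose promoter is shown above, was 0.93 higher at 70 min and 0.80 higher at 4 h. No test of the difference between the lists was made, and the 2 lists were read on the same 12 arrays.

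**Figure D5:**
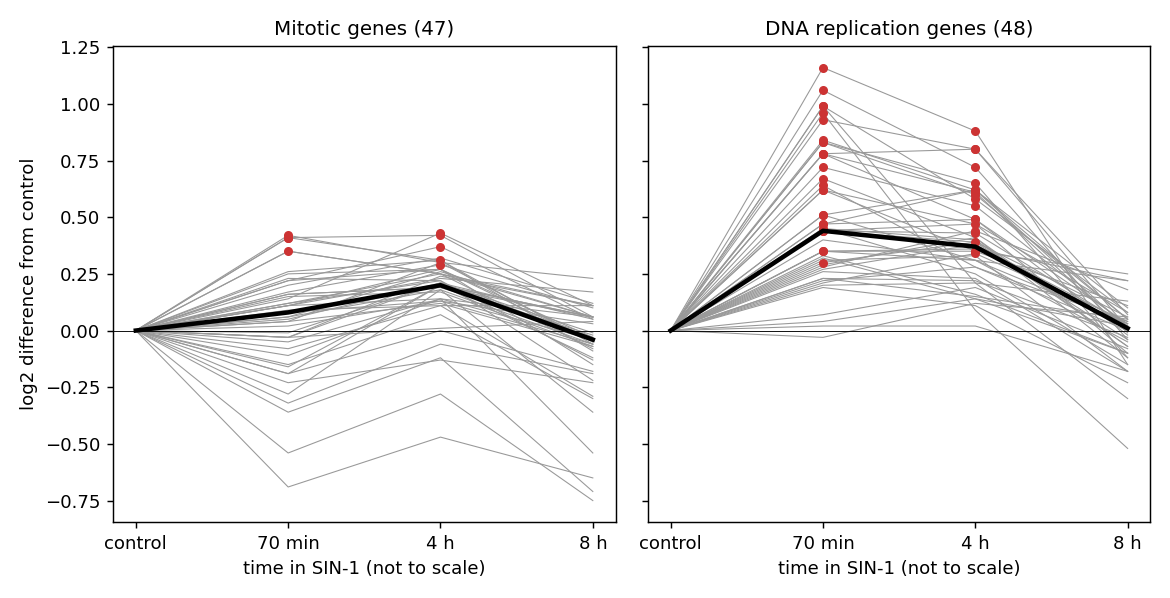
Grey lines give the log2 difference from control of each gene at 70 min, 4 h and 8 h, the black line the median of the list, and red points the genes called by limma at that time; both panels share the vertical axis and the time axis is not to scale. The mitotic median is highest at 4 h (0.20) and the replication median at 70 min (0.44). The median mitotic step from 70 min to 4 h is 0.12 in this fit and 0.03 with the array median as a further term.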

How the data were processed

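RNA from 12 samples, 3 in each of 4 groups, was hybridised to one-colour arrays. The submitters' processing notes name RMA and Affymetrix Expression Console 1.3.1.187. The authors deposited the resulting log2 values for 36685 probes, made with RMA per the submitters' processing notes, and the log2 scale was read from their range (1.19 to 13.63). RMA corrects background and equalises the distributions of arrays, so that differences in total RNA are removed and folds near background are compressed. The build and any filters behind them were not given in the sources used here. Scanner signals were not used here, so depth is known only through the number of arrays, which limits the precision.

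A platform table gave 18511 probes 1 gene symbol and 575 several, and 17599 were unlisted; 18394 of the named probes matched a RefSeq gene (assembly GRCr8) and 0 symbols changed. The probe of highest mean over the arrays was kept for each gene, which left 18166 genes. Using limma 3.58.1 (R 4.3.3), 1 model of the 4 groups was fitted over the 12 arrays, which leaves 8 residual degrees of freedom, and eBayes was run with its trend option. The two-sided moderated p-values of each comparison were adjusted by Benjamini-Hochberg over every gene; a gene was called below 0.05. Nothing in the labels says whether replicates came from separate animals, so p-values measure the spread between these samples. The scripts were tested on simulated arrays of known changes with independent noise. That check required calls only of a log2 change of 1, so it does not cover the smaller changes called here. Replicate numbers showed no sign of pairing. The correlation of deviations from group means ran from -0.32 to 0.24 over same-numbered arrays. Over differently numbered arrays it ran from -0.41 to 0.40. With 3 arrays a group such correlations cannot exclude pairing. Named were all genes called in any comparison, 14 members fixed by name and every other member by value or range, with up to 4 called genes of each further list in a comparison. The members, lists and tests were chosen with earlier results of these data known. Alternatives are given in the closing section. Promoters came from RefSeq; the TATAAA letters upstream of the start were read in the sense direction on both strands more often than in the reverse. Figures were drawn with matplotlib 3.10.9.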

Additional observations from a re-analysis of the deposited data

Results flagged for a closer look

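Groups of 3 arrays are too small for a test of single outlying arrays. The difference from control changed between 2 treated times, by the direct limma comparison of those times, in the mitotic genes that follow. From 70 min to 4 h, Dlgap5 changed by 0.36 and Nusap1 by 0.39 on the log2 scale (limma adjusted p = 0.0223 and 0.0254). From 4 h to 8 h, Ccna2 changed by -0.37 and Cep55 by -0.44 (limma adjusted p = 0.0188 and 0.0495). From 70 min to 8 h, Ccna2 changed by -0.47, Mad2l1 by -0.47, Foxm1 by -0.43, Racgap1 by -0.36, Incenp by -0.35 and Ccnb2 by 0.19, with limma adjusted p-values from 0.000761 to 0.0325.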

How the results depend on the processing

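Of the 19 calls of a mitotic gene in a comparison, none changed direction under the 24 settings tried, and 340 of 456 recalculations kept the call; without a call the cause was not tested. At 70 min the 4 calls became 7 with array weights and 8 with a further quantile normalization or the array median as a covariate. They became 9 with the compared groups alone, 1 with centred arrays and 2 to 5 with 1 array left out. Not all added calls were rises. Array weights added Cenpf (-0.78) and Ndc80 (-0.36) as lower and Cenpa (0.35) as higher. The compared groups alone added Kif20b (-0.54), Cenpf (-0.69), Ndc80 (-0.32) and Mki67 (-0.36) as lower and Cenpa (0.35) as higher. The calls added with quantile normalization or the covariate were all higher. Without 70 min replicate 1, Ndc80 (-0.42) and Nusap1 (-0.32) were called lower. At 4 h the 5 calls became 1 without a trend in the prior variance, 0 with centred arrays or all probes and 2 with the compared groups alone, and 0 to 5 with 1 array left out. At 8 h the count was 0 under every setting. From 70 min to 4 h the 2 calls became 4 with the replicate block and 0 without the trend, with centred arrays, the covariate, all probes, the compared groups alone or without the 3 arrays of highest median, and 0 to 4 with 1 array left out. From 4 h to 8 h the 2 calls became 0 without the trend, with centred arrays or all probes, 1 with the compared groups alone, 4 with a robust prior, 6 without the 3 arrays of highest median, 8 with array weights, with quantile normalization or with the brighter genes alone and 12 with the covariate, and 0 to 6 with 1 array left out. From 70 min to 8 h the 6 calls became 10 with array weights, 12 with quantile normalization, 2 with centred arrays and 3 without the 3 arrays of highest median, and 3 to 8 with 1 array left out. The median of the 47 genes moved from 0.08 to 0.22 at 70 min without the 3 arrays of highest median, from 0.12 to 0.03 between 70 min and 4 h with the covariate or without those arrays, and from -0.10 to -0.24 and -0.25 between 70 min and 8 h. With all other settings that left out no single array, the median ran from 0.20 to 0.27 at 4 h against control. It ran from -0.06 to -0.01 at 8 h and from 0.02 to 0.22 at 70 min against control. Between 70 min and 8 h it ran from -0.25 to -0.02, and between 70 min and 4 h from 0.03 to 0.18. With 1 array left out the median ran from 0.00 (without 70 min replicate 1; 0.02 without control replicate 2) to 0.12 (without 70 min replicate 2) at 70 min, from 0.15 to 0.27 at 4 h and from -0.07 (without control replicate 2) to 0.01 (without control replicate 3) at 8 h. It ran from 0.05 (without 4 h replicate 2; 0.07 without 70 min replicate 2) to 0.21 (without 70 min replicate 1) between 70 min and 4 h, from -0.29 to -0.19 between 4 h and 8 h and from -0.15 (without 70 min replicate 2) to -0.03 (without 70 min replicate 1) between 70 min and 8 h.

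Same replicate numbers showed no sign of pairing. With the replicate block Ccna2 at 4 h (limma adjusted p = 0.053) and Cep55 from 4 h to 8 h (0.0614) lost their calls. The block left 4 calls at 70 min, 4 at 4 h, 4 from 70 min to 4 h and 0 at 8 h. Over all genes the calls numbered 2647 at 70 min and 1046 without the 3 arrays of highest median, 1751 without control replicate 1; 699 at 4 h and 339 without the trend, 341 with centred arrays and 373 to 757 with 1 array left out; 1386 from 70 min to 4 h, 763 with the compared groups alone and 318 without the 3 arrays; 637 from 4 h to 8 h and 300 with centred arrays; 2904 from 70 min to 8 h and 1181 without the 3 arrays; and 5 at 8 h, 37 with array weights. Removing the 3 arrays leaves 1 array at 70 min, taken to vary like the other groups.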
